A study of Homo sapiens with 18 samples.

Results

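Ribosome footprints of MDA-MB-231 cells carrying the hairpin SH2 against the mRNA of fibrillarin were compared with those of cells carrying the scramble control SC. The comparison rests on 6 of the study's 18 libraries, 3 footprint libraries of SH2 and 3 of SC, chosen by their labels. MDA-MB-231 is an established line of triple-negative breast carcinoma, a class of breast cancer without the oestrogen receptor, the progesterone receptor and high HER2. Cells of every group were transduced with pLKO.1 lentivirus and selected in puromycin at 1 µg/ml for 96 h. On the day after a change to fresh medium they received cycloheximide at 100 µg/ml for 5 min before lysis, and the controls had the same treatment. The groups are therefore selected pools of 1 cell line, with 1 hairpin in SH2 and another in SH3. SC is taken to abbreviate scramble. In the protocols the hairpins are knockdown 1 and knockdown 2, and which of them is SH2 is not given in the sources used here. The labels do not say whether the 3 replicates of a group came from separate cultures, so the p-values measure only the spread between these libraries.

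Fibrillarin is an RNA methyltransferase of the nucleolus. In a particle with a box C/D guide RNA and the proteins NOP56, NOP58 and SNU13, it places methyl groups on the 2'-hydroxyl of ribosomal RNA, and it also acts in the early cleavage of the ribosomal RNA precursor. Ribosome profiling digests the mRNA outside the ribosome with RNase and sequences the stretch that the ribosome covers, so a gene's footprint count follows both the amount of its mRNA and the number of ribosomes on it. Cytoplasmic RNA of the same lysates (IN) shows the first of these. The ratio of footprints to RNA is called translational efficiency.

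Counts in the 6 footprint libraries came to 2486598 to 6098648 per library, over 12091 to 13095 detected genes. Levels are given as CPM, a gene's count scaled to a common library total after TMM normalisation, always for replicates 1, 2 and 3 of a group. They are not corrected for gene length, so they are compared between libraries and not between genes. A count of 3 corresponds to 0.492 to 1.21 CPM in these libraries, and counts at or under 3 are treated as the floor. The common biological coefficient of variation estimated by edgeR over the 9 footprint libraries was 15.1%. Of 14 markers listed for a mesenchymal-like triple-negative breast line, 14 were above the floor in at least 1 library, beside 5 of 9 luminal and HER2 markers. The 14 had a summed level of 11776 to 15131 CPM in SC and 16105 to 17007 in SH2, although SPARC stayed near the floor. The 9 luminal and HER2 markers summed to 113 to 145 CPM in SC and 161 to 176 in SH2, and XBP1 and ERBB2 made up most of it. XBP1 had 60.2 to 77.9 CPM in SC and 96.0 to 114 in SH2, and ERBB2 had 36.5 to 54.15 and 43.3 to 54.3. EPCAM and GATA3 were above the floor in all 6 libraries and TFF1 in some. ESR1, PGR, FOXA1 and CDH1 were at or near 0. Of 9 leukocyte markers 7 were in the table, with a sum of 8.44 to 16.01 CPM in SC and 10.7 to 15.4 in SH2. CD14 and CD68 were above the floor, and PTPRC and CD3E at or near 0. Of 6 endothelial markers 5 were in the table, with 8.34 to 16.4 CPM in SC and 11.7 to 17.5 in SH2, where KDR and PECAM1 were above the floor and CDH5 was at 0. The 9 fibroblast and pericyte markers summed to 31.8 to 58.1 CPM in SC and 43.3 to 91.1 in SH2. Most of that sum was COL1A1, with 21.4 to 44.2 CPM in SC and 27.8 to 73.7 in SH2, whereas DCN and PDGFRA were at 0 in all 6 libraries. The part of these markers in the results was not tested. The 3 SC libraries differed from each other in the share of mitochondrially encoded mRNAs and of histone mRNAs, which is taken up with those genes below.

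FBL, the targeted gene, had footprints of 279.7, 269 and 296 CPM in SC and 5.18, 4.43 and 30.1 CPM in SH2. The SC libraries lay close together, all 3 SH2 libraries were far below them, and SH2 replicate 3 kept more footprints than the other two. SH2 footprints were 4.702% of the SC mean (log2 fold change -4.44, SE 0.43, edgeR adjusted p = 1.58e-06), the steepest fall of any called gene. Without SH2 replicate 3 the log2 fold change was -5.87. Cytoplasmic FBL RNA was at 395, 349 and 421 CPM in SC and 1.25, 4.51 and 11.2 CPM in SH2, with the same replicate the highest of SH2.

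Footprint levels of a large part of the transcriptome differed between SH2 and SC. Of 10345 genes tested, 4576 (44.2%) passed edgeR's quasi-likelihood test at an adjusted p under 0.05, and these are called here. Footprints of 2174 genes (21%) rose and those of 2402 genes (23.2%) fell. The median log2 fold change over all tested genes was -0.004, the median of the called rises 0.84 and of the called falls -0.92. A change of at least 2-fold was reached by 770 called rises (7.44%) and 1028 called falls (9.94%). In 2588 genes (25%) all 3 SH2 libraries lay above all 3 SC libraries, and in 2718 genes (26.3%) they lay below. The counts of each gene list below stand beside these shares, 21% called higher and 23.2% called lower. Genes called higher took 18.51% of all footprints in SC and 32.03% in SH2, while genes called lower went from 33.3% to 18.82%.

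**Figure D1:**
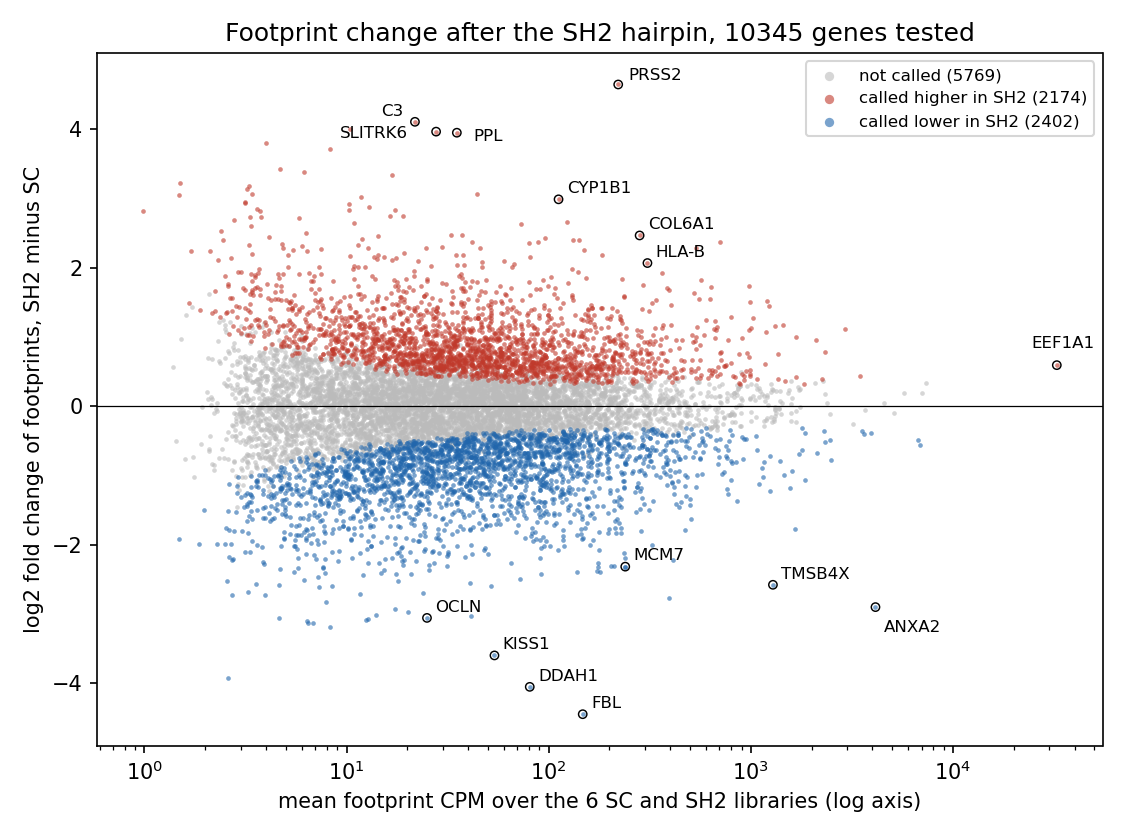
Footprint change of each of 10345 tested genes, with the mean CPM of the 6 libraries on the x axis (log axis) and the log2 fold change of SH2 against SC on the y axis. Red points are the 2174 genes called higher, blue points the 2402 called lower and grey points those not called. FBL is the lowest point of the plot among called genes.

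Among called genes with a mean of at least 10 CPM and no overlap between the groups, the 12 steepest rises ran from a log2 fold change of 2.84 to 4.65. PRSS2, a trypsinogen secreted by the pancreas, had footprints of 15.3, 24.0 and 13.7 CPM in SC and 506, 313 and 454 CPM in SH2 (log2 fold change 4.65, SE 0.23, edgeR adjusted p = 5.72e-09). All 3 SH2 libraries stood more than an order of magnitude above the SC libraries. PRSS2 belongs to a family of near-identical trypsinogen genes, and how reads that match several copies were counted is not given in the sources used here. C3, the central complement component, rose from 2.60, 3.37 and 1.60 CPM to 36.3, 43.6 and 43.4 CPM (log2 fold change 4.11, SE 0.37, edgeR adjusted p = 9.99e-07). SLITRK6, a transmembrane protein known from sensory neurons, rose from 4.87, 3.37 and 1.60 CPM to 60.7, 50.6 and 45.3 CPM (log2 fold change 3.97, SE 0.30, edgeR adjusted p = 2.25e-07), and without SC replicate 1 its log2 fold change was 4.57. For both genes the SC libraries were low and spread widely, whereas the SH2 libraries agreed closely.

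PPL encodes periplakin, a linker of the cornified envelope and of desmosomes. Its footprints were at 5.68, 2.11 and 3.91 CPM in SC and 59.99, 60.8 and 78.3 CPM in SH2 (log2 fold change 3.95, SE 0.26, edgeR adjusted p = 1.07e-07), with no SH2 library near the SC range. BMF, a BH3-only protein that promotes apoptosis, had 3, 2 and 12 raw counts in SC, and its footprints were at 0.487, 0.843 and 2.13 CPM in SC and 10.4, 19.8 and 28.8 CPM in SH2 (log2 fold change 4.01, SE 0.46, edgeR adjusted p = 6.91e-06). All SH2 libraries were above SC, as the rule for choosing these genes required. The SC counts were at the floor in 2 libraries, and without SC replicate 3 the log2 fold change was 4.98. TCN1, a secreted vitamin B12 carrier, rose from 3.41, 4.21 and 1.95 CPM to 20.4, 40.6 and 29.8 CPM (log2 fold change 3.33, SE 0.40, edgeR adjusted p = 1.08e-05). EREG, which encodes the EGF receptor ligand epiregulin, rose from 10.7, 7.58 and 9.23 CPM to 95.9, 45.7 and 97.5 CPM (log2 fold change 3.06, SE 0.28, edgeR adjusted p = 1.22e-06). The SH2 libraries of both genes spread over about a doubling, and none came near the SC libraries.

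CYP1B1, a cytochrome P450 that metabolises oestrogens and aromatic hydrocarbons, was at 15.9, 40.4 and 22.7 CPM in SC and 144, 268 and 180.3 CPM in SH2 (log2 fold change 2.99, SE 0.28, edgeR adjusted p = 1.25e-06). The SH2 libraries of this gene lay well apart from SC. The remaining 4 of the 12 were WNT9A, a WNT ligand (log2 fold change 3.02), CYP2S1, another cytochrome P450 (2.92), the mechanosensitive ion channel gene PIEZO2 (2.88) and the secreted lectin-like gene ZG16B (2.84). In all 12 genes the cytoplasmic RNA was called in the same direction, where 31.1% of all genes tested for RNA were called higher. In 0 of 12 was translational efficiency called different, which is near the share of all genes called in it, 3.9%.

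**Figure D2:**
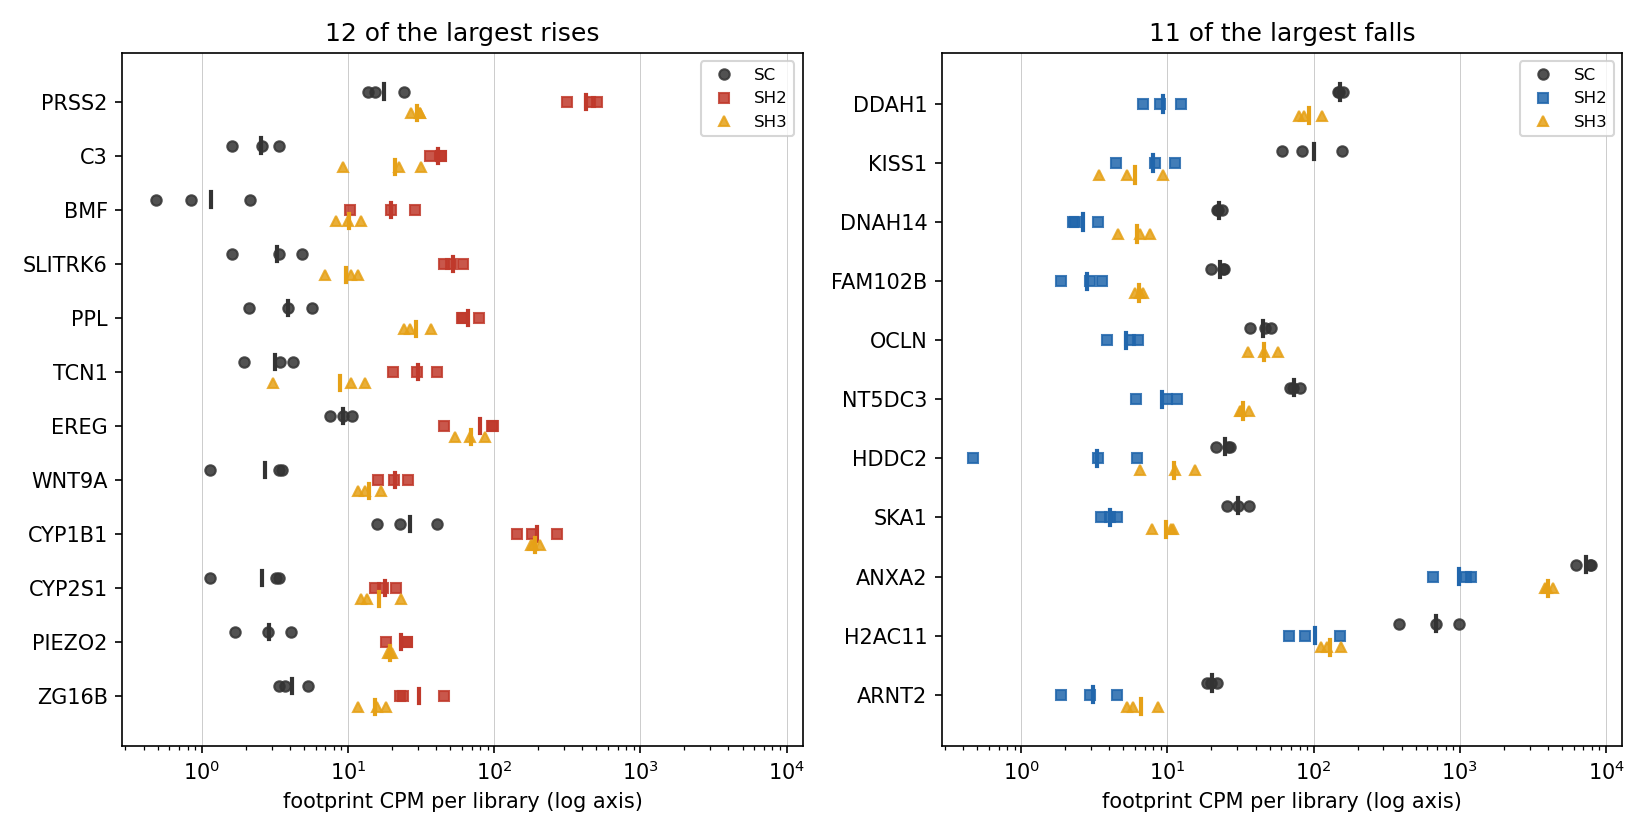
Footprint CPM per library (log axis) of the 12 steepest rises and 11 of the 12 steepest falls, FBL apart, with SC in black, SH2 in red or blue and SH3 in orange. Each symbol is 1 library and each vertical bar the mean of the 3 libraries of a group. In every gene shown the SH2 and SC symbols do not overlap, which the rule for choosing them required.

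FBL apart, 11 of the 12 steepest falls are described, which ran from a log2 fold change of -2.71 to -4.05. DDAH1, which breaks down asymmetric dimethylarginine, an inhibitor of nitric oxide synthesis, was at 159.9, 149 and 147 CPM in SC and 8.89, 6.76 and 12.3 CPM in SH2 (log2 fold change -4.05, SE 0.21, edgeR adjusted p = 8.2e-09). The SC libraries lay within a narrow band and the SH2 libraries an order of magnitude below. KISS1, the precursor of kisspeptin and known as a metastasis suppressor, fell from 60.9, 155 and 83.8 CPM to 4.44, 8.16 and 11.3 CPM (log2 fold change -3.60, SE 0.36, edgeR adjusted p = 2.3e-06). OCLN, the tight junction protein occludin, fell from 46.8, 51.0 and 36.6 CPM to 5.55, 6.29 and 3.88 CPM (log2 fold change -3.05, SE 0.25, edgeR adjusted p = 4.05e-07). The KISS1 values spread widely in both groups and the OCLN values did not. That the groups do not overlap was required by the rule for choosing these genes.

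ANXA2, an annexin that binds membranes and plasminogen, was among the genes with the most footprints in SC. Its footprints were at 6244, 7917 and 7736 CPM in SC and 1183, 650.1 and 1106 CPM in SH2 (log2 fold change -2.90, SE 0.19, edgeR adjusted p = 1.07e-07). All SC libraries were several times above all SH2 libraries. Pseudogenes of ANXA2 that share its sequence exist, so its level carries that uncertainty. The histone H2A gene H2AC11 was at 989.7, 384 and 689 CPM in SC and 86.7, 68.3 and 151 CPM in SH2 (log2 fold change -2.76, SE 0.31, edgeR adjusted p = 6.26e-06), with the lowest SC value in replicate 2. Near-identical copies of this histone may share its reads, and all histone genes together took 0.8382% to 1.665% of SC footprints and 0.4547% to 0.7321% of SH2 footprints. SKA1, a kinetochore protein, fell from 35.9, 30.3 and 25.4 CPM to 4.07, 3.50 and 4.53 CPM (log2 fold change -2.93, SE 0.25, edgeR adjusted p = 5.57e-07).

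The other steep falls were the axonemal dynein chain gene DNAH14 (log2 fold change -3.09), FAM102B (-3.07), NT5DC3 (-3.03), HDDC2 (-3.01) and ARNT2, a partner of bHLH-PAS transcription factors (-2.71). HDDC2 depended on single libraries, with -2.36 without SH2 replicate 2 and -3.91 without SH2 replicate 3. Its SH2 values were 3.33, 0.466 and 6.15 CPM, the second of them under the floor. RNA was called lower in all 11 genes, beside 30.4% of all genes tested for RNA. Only for DNAH14 of these 11 was translational efficiency called, with a log2 difference of -2.08 (SE 0.29, edgeR adjusted p = 0.00047). Over all genes 3.9% were called in translational efficiency.

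Measured by CPM rather than by fold, the largest gains among called genes included EEF1A1, MYH9, PSAP and ITGA3. EEF1A1, the elongation factor that delivers aminoacyl-tRNA to the ribosome, was at 18240, 30640 and 29190 CPM in SC and 35940, 44260 and 37720 CPM in SH2 (log2 fold change 0.60, SE 0.17, edgeR adjusted p = 0.00915). Every SH2 library was above every SC library, although the fold was modest. The non-muscle myosin gene MYH9 had a log2 fold change of 0.96, the prosaposin gene PSAP of 0.79 and the integrin gene ITGA3 of 1.53. The 5 largest losses were in ANXA2, S100A6, HSP90AA1, TMSB4X and STMN1. TMSB4X, thymosin beta 4, which holds actin monomers, fell from 3556, 1384 and 1672 CPM to 444, 339.9 and 326 CPM (log2 fold change -2.58, SE 0.27, edgeR adjusted p = 4.04e-06). STMN1, stathmin, which destabilises microtubules, fell from 2556, 2318 and 2780 CPM to 646, 819.6 and 775 CPM (log2 fold change -1.77, SE 0.16, edgeR adjusted p = 1.09e-06). In neither gene did the groups overlap. S100A6, a calcium-binding protein, and the chaperone HSP90AA1 lost 0.55 and 0.49 on the log2 scale. EEF1A1 and TMSB4X have near-identical copies or pseudogenes, so their counts carry the same uncertainty as ANXA2.

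DNA replication needs the MCM helicase, the GINS complex, replicative polymerases and a supply of nucleotides, and mitosis needs cyclin-dependent kinase 1, the spindle checkpoint and kinetochore proteins. Of 40 tested genes of DNA replication and nucleotide supply, 35 fell and 0 rose, 19 of them by at least 2-fold, with a median log2 fold change of -0.99. Of 45 mitosis and spindle genes, 42 fell and 0 rose, 28 of them by at least 2-fold, with a median of -1.09. Over all tested genes 23.2% were called lower and the median was -0.004. In 35 of the 40 replication genes and 41 of the 45 mitosis genes all 3 SH2 libraries lay below all 3 SC libraries, as in 26.3% of all tested genes.

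MCM7, a subunit of the replicative helicase, was at 388, 346 and 462 CPM in SC and 75.5, 59.0 and 107 CPM in SH2 (log2 fold change -2.31, SE 0.19, edgeR adjusted p = 4.45e-07). GINS1, which joins that helicase at the fork, fell from 46.4, 37.5 and 46.2 CPM to 9.63, 9.56 and 11.7 CPM (log2 fold change -2.09, SE 0.19, edgeR adjusted p = 8.99e-07). RRM2, the regulated subunit of ribonucleotide reductase, fell from 322, 365 and 319 CPM to 72.2, 92.1 and 119.8 CPM (log2 fold change -1.82, SE 0.18, edgeR adjusted p = 1.7e-06). In each of the 3 genes every SH2 library lay far below the lowest SC library. PCNA, the sliding clamp of the replicative polymerases, had a smaller change (log2 fold change -0.99). Genes of the list that were not called were ORC1, FEN1, RPA1, POLA1 and POLD2, with log2 fold changes of -0.64, -0.38, -0.19, -0.15 and -0.15, and without SC replicate 2 ORC1 (-0.82) and FEN1 (-0.52) were called lower as well.

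In the mitosis group, MYBL2, a transcription factor that switches on late cell cycle genes, was at 54.2, 31.2 and 38.7 CPM in SC and 5.18, 5.59 and 8.74 CPM in SH2 (log2 fold change -2.69, SE 0.27, edgeR adjusted p = 2.62e-06). SPC24, a kinetochore subunit, fell from 46.9, 40.4 and 66.0 CPM to 10.0, 10.7 and 13.9 CPM (log2 fold change -2.16, SE 0.22, edgeR adjusted p = 2.36e-06). PLK1, the polo-like kinase of mitotic entry, fell from 150, 119 and 175 CPM to 30.7, 30.8 and 46.9 CPM (log2 fold change -2.04, SE 0.19, edgeR adjusted p = 1.37e-06). All 3 genes separated the groups completely. CDK1, the mitotic kinase itself, had a log2 fold change of -1.33 and cyclin B2, CCNB2, of -1.34. INCENP, RACGAP1 and ECT2 were not called (-0.40, -0.24 and -0.16), but without SC replicate 2 INCENP was (-0.60). Outside these lists, the G1/S cyclin gene CCNE2 fell by 2.16 on the log2 scale and HMGB2, a chromatin protein abundant in dividing cells, by 2.19. CDK6, a kinase of the G1 phase, rose from 33.0, 30.8 and 26.3 CPM to 164, 169.5 and 153 CPM (log2 fold change 2.44, SE 0.14, edgeR adjusted p = 2.77e-08), and CCND1, its cyclin D1 partner, fell from 585, 639 and 719.5 CPM to 173, 247 and 292 CPM (log2 fold change -1.45, SE 0.19, edgeR adjusted p = 2.2e-05). Neither pair of groups overlapped, and the changes of the kinase and of the cyclin had opposite signs. Cytoplasmic RNA was called lower for 39 of 41 replication genes and 44 of 45 mitosis genes, against 30.4% of all genes tested for RNA. Translational efficiency was called for 0 of 41 replication genes and 1 of 45 mitosis genes, the latter higher. Both counts are near the share of all genes called in it, 3.9%. In libraries of whole cultures, fewer cells in a phase of the cycle and less of an mRNA in each such cell cannot be told apart.

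Since these genes moved together, their promoters are shown for the elements through which cell cycle genes are known to be controlled. The E2F motif binds E2F factors in genes of the G1/S transition, and the cell cycle homology region (CHR) binds the MuvB complex, often near CCAAT boxes, in genes of G2 and mitosis. RefSeq's promoter windows (GRCh38.p14, 250 bases before to 50 after a gene's start, 300 bases in all) were matched by symbol to 8516 of the 10345 tested genes, which have 12548 windows. The CHR was searched as TTTGAA and TTCGAA, the E2F motif as TTTCGCGC and TTTGGCGC and the CCAAT box as CCAAT, each on both strands. A CHR was found in 30 of 44 windows of mitosis genes (68.2%), 3 of 45 windows of replication genes (6.67%) and 11.9% of the windows of all tested genes. An E2F motif was found in 10 of 45 windows of replication genes (22.2%), 3 of 44 windows of mitosis genes (6.82%) and 1.9% of all. CCAAT stood in 75.0% of the windows of mitosis genes, 55.6% of those of replication genes and 4396 of the 12548 windows of all tested genes. Across all called genes, which include members of these lists, a CHR stood in 14.5% of the windows of genes called lower and 10.7% of those called higher. For the E2F motif the shares were 2.81% and 1.28%, and for CCAAT 36.7% and 35.3%. These are matches of letters and not sites shown to be bound in these cells.

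The 150 bases before the start are printed below for a pair of genes of each list. They were taken from the called genes with 1 window, a mean of at least 10 CPM and a required motif in that stretch. The required motif was E2F for replication genes and the CHR for mitosis genes, so its presence was set by the choice. Genes on 1 chromosome were left out. Of the rest, those with the steepest falls were taken, a choice made after their values were seen. Capitals mark every CHR, E2F or CCAAT match on either strand, where TTCAAA, GCGCGAAA, GCGCCAAA and ATTGG are the reverse forms. POLE, the leading strand polymerase, lies on the minus strand at chr12:132687343-132687492, and MCM6, a helicase subunit, on the minus strand at chr2:135876444-135876593. PLK1 is read on the plus strand at chr16:23678739-23678888 and CCNB2 on the plus strand at chr15:59104996-59105145.
POLE: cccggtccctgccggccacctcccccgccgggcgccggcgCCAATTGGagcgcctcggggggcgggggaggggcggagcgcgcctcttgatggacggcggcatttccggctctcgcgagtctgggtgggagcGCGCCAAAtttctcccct
MCM6: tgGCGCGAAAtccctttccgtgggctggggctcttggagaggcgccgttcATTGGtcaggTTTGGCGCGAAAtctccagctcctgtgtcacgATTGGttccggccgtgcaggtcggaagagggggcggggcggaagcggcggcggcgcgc
PLK1: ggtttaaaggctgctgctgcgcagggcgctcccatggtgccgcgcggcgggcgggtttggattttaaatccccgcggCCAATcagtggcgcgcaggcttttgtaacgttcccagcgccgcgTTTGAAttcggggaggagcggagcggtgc
CCNB2: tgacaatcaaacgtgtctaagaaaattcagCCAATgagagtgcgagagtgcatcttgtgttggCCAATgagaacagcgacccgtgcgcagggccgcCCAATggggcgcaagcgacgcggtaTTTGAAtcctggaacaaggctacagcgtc
Footprints of these genes fell from 52.8, 56.9 and 67.5 CPM to 24.8, 27.3 and 38.5 CPM for POLE (log2 fold change -0.97) and from 119.5, 110.4 and 143 CPM to 59.2, 58.5 and 81.6 CPM for MCM6 (-0.91). CCNB2 fell from 95.6, 78.4 and 79.5 CPM to 33.0, 34.3 and 33.4 CPM. The groups did not overlap in any of the 4 genes whose promoters are shown.

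**Figure D3:**
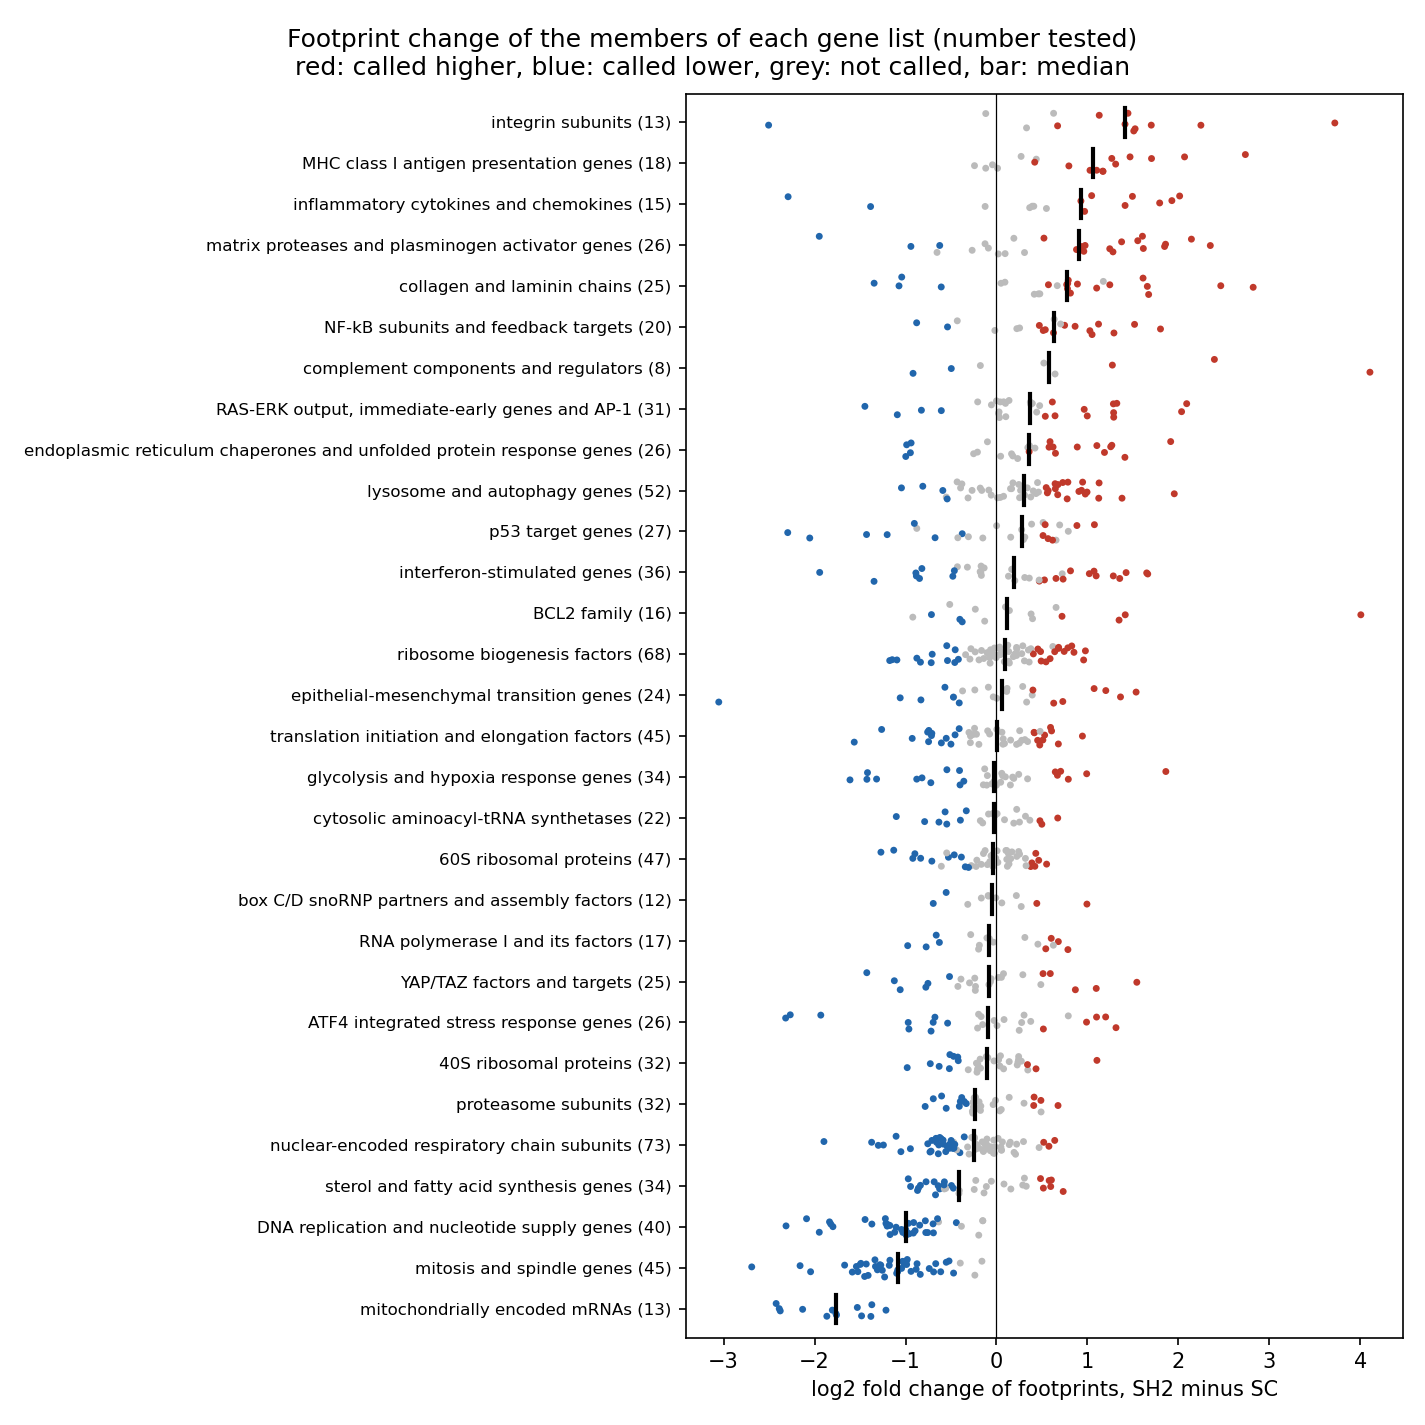
Log2 fold change of footprints (x axis) for every tested member of 30 gene lists (y axis, number tested in parentheses), ordered by the list median, which is the black bar. Each point is 1 gene, red where called higher, blue where called lower and grey where not called. Integrin and MHC class I genes lie highest, and mitosis, replication and mitochondrially encoded genes lowest.

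The 13 mRNAs encoded in the mitochondrial genome carry subunits of the respiratory chain and are translated by mitochondrial ribosomes, which cycloheximide does not stop. All 13 were called lower in SH2, with a median log2 fold change of -1.76 (23.2% of all genes were called lower), and in 10 of 13 the SH2 libraries all lay below SC (26.3% of all genes). MT-CO1, a core subunit of cytochrome c oxidase, was at 1932, 1216 and 557 CPM in SC and 417, 502 and 514 CPM in SH2. The SC libraries were far apart, and SC replicate 3 lay close to the SH2 libraries. The share of these 13 genes in all footprints was 0.66%, 0.4154% and 0.1664% in SC and 0.1199% to 0.1485% in SH2. The list median was -1.34 without SC replicate 1 and -2.17 without SC replicate 3. MT-ND3 and MT-ATP6 had log2 fold changes of -2.42 and -2.39, and of -1.61 and -1.68 without SC replicate 1. What part of these reads comes from mitochondrial ribosomes was not tested.

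Most subunits of the respiratory chain are encoded in the nucleus. Of 73 such genes tested, 30 fell and 3 rose, with a median log2 fold change of -0.24. Over all tested genes 23.2% fell and 21% rose. NDUFA5, a complex I subunit, fell from 45.6, 32.4 and 52.5 CPM to 8.89, 12.1 and 14.2 CPM (log2 fold change -1.90, SE 0.22, edgeR adjusted p = 7.95e-06). ATP5PD, of the ATP synthase stalk, fell from 297, 358 and 292 CPM to 143, 106 and 117.2 CPM (log2 fold change -1.37, SE 0.14, edgeR adjusted p = 3.23e-06). In neither gene did an SH2 library reach the SC range. The rises were ATP5F1B (0.52), COX5B (0.58) and COX7C (0.64), and COX7C was not called without SH2 replicate 1 (0.44, edgeR adjusted p = 0.0547).

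MHC class I molecules present peptides that the proteasome cuts and the TAP transporter carries into the endoplasmic reticulum. Of 18 tested genes of this pathway 12 rose and 0 fell, with a median log2 fold change of 1.07, against 21% called higher among all genes. After all libraries were thinned to one depth 7 were called. HLA-B, a heavy chain, was at 120.5, 112 and 123 CPM in SC and 420.3, 592 and 481 CPM in SH2 (log2 fold change 2.07, SE 0.15, edgeR adjusted p = 1.48e-07). HLA-F, a non-classical heavy chain, rose from 0.812, 0.421 and 1.06 CPM to 6.29, 5.13 and 6.15 CPM (log2 fold change 2.74, SE 0.41, edgeR adjusted p = 8.59e-05). All SH2 libraries of both genes were above all SC libraries, with HLA-F under the floor in SC replicate 2 and close to it in the other SC libraries. Heavy chain genes resemble each other closely, so reads could have been split among them. The peptide loading genes TAPBPL and TAPBP rose by 1.71 and 1.31 and the immunoproteasome subunits PSMB10 and PSMB9 by 1.27 and 1.17. The transporter subunit TAP2 rose by 1.10, a call lost at the thinned depth, and the trimming peptidase ERAP1 by 0.80. B2M, the shared light chain, had 0.27 and was not called.

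NF-kB is held in the cytosol by its inhibitors, and once free in the nucleus it switches on its own feedback inhibitors together with cytokines and adhesion genes. Of 20 tested subunits and feedback targets 12 rose and 2 fell, with a median log2 fold change of 0.63, where 21% of all genes rose and 23.2% fell. The number that rose was 7 without SC replicate 3 and 7 without SH2 replicate 2. BIRC3, an inhibitor of apoptosis, was at 4.71, 2.11 and 1.77 CPM in SC and 15.2, 12.1 and 4.86 CPM in SH2 (log2 fold change 1.80, SE 0.41, edgeR adjusted p = 0.00218), and its log2 fold change was 2.49 without SC replicate 1. Its lowest SH2 library lay just above its highest SC library. BCL3, a nuclear co-activator of NF-kB, rose from 6.66, 3.37 and 3.73 CPM to 13.3, 12.8 and 15.5 CPM (log2 fold change 1.52, SE 0.28, edgeR adjusted p = 0.000447). The feedback inhibitor NFKBIA rose from 131, 103 and 92.3 CPM to 209, 194 and 147 CPM (log2 fold change 0.75, SE 0.18, edgeR adjusted p = 0.00304). RELB, a subunit of the non-canonical pathway, rose by 1.12, whereas NFKB1, a subunit of the canonical pathway, had 0.22 and was not called. The falls were NFKBIZ (-0.88), which was not called at the thinned depth, and BIRC2 (-0.54), which was not called without SH2 replicate 2 (-0.49) or SH2 replicate 3 (-0.41).

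The promoter of NFKBIA, a known example of NF-kB feedback, is shown. It came from called rises of the list with 1 window, at least 10 CPM on average and a kappaB match in the stretch shown. That match was therefore required by the choice, which was made after the values were seen. The 150 bases before the start of NFKBIA, on the minus strand at chr14:35404750-35404899 (RefSeq, GRCh38.p14), hold 1 match to the kappaB motif, in capitals.
NFKBIA: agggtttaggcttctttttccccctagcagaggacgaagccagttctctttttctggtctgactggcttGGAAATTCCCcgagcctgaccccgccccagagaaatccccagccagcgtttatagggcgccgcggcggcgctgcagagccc
The kappaB motif, searched on both strands by its consensus, was found in 13 of 31 windows of the NF-kB list (41.9%), 7 of 20 windows of the MHC class I list and 13.2% of the windows of all tested genes. Across all called genes the shares were 13.3% of the windows of genes called higher and 12.3% of those called lower.

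Of 15 tested cytokines and chemokines 8 rose and 2 fell, with a median log2 fold change of 0.93 (all genes: 21% rose and 23.2% fell). Over the alternatives the number that rose went as low as 5, and 2 fell in each. CXCL1, a neutrophil attractant, was at 3.73, 2.53 and 1.60 CPM in SC and 15.2, 8.62 and 7.45 CPM in SH2 (log2 fold change 1.93, SE 0.47, edgeR adjusted p = 0.00355). TNFSF10, the death receptor ligand TRAIL, rose from 9.25, 2.95 and 1.77 CPM to 15.9, 30.1 and 13.9 CPM (log2 fold change 2.01, SE 0.44, edgeR adjusted p = 0.00167), and by 3.22 without SC replicate 1. IL1B, an inflammatory cytokine, rose from 21.1, 24.9 and 14.0 CPM to 80.7, 67.1 and 56.0 CPM (log2 fold change 1.80, SE 0.22, edgeR adjusted p = 1.16e-05). The IL1B groups were well apart. IL11, a cytokine of the IL-6 family, fell from 26.5, 40.9 and 27.7 CPM to 6.29, 5.13 and 7.77 CPM (log2 fold change -2.29, SE 0.25, edgeR adjusted p = 4.19e-06), and IL18 fell by 1.38 on the log2 scale. The direction was therefore not shared by all cytokines of the list.

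Among 8 tested complement genes 3 rose and 2 fell, against 21% and 23.2% of all genes. Beside C3, the chaperone-like regulator clusterin, CLU, rose from 43.4, 43.8 and 48.3 CPM to 252, 219 and 244 CPM (log2 fold change 2.40, SE 0.14, edgeR adjusted p = 2.77e-08). CD46, a membrane inhibitor of complement, and C1QBP fell by 0.92 and 0.50. Of 36 tested interferon-stimulated genes 13 (36.1%) rose and 8 (22.2%) fell, with a median log2 fold change of 0.19, and the share that fell was near that of all genes. RSAD2, the antiviral protein viperin, rose from 1.30, 1.26 and 0.710 CPM to 3.70, 4.20 and 2.27 CPM (log2 fold change 1.66, SE 0.42, edgeR adjusted p = 0.00486). Its SC values were close to the floor, and the value of SC replicate 2 was at it. OAS1, a sensor of double-stranded RNA, rose by 1.65, or by 2.55 without SC replicate 1. IFITM1, a membrane protein that blocks viral entry, fell from 25.3, 18.5 and 17.4 CPM to 2.59, 7.23 and 5.50 CPM (log2 fold change -1.94, SE 0.30, edgeR adjusted p = 0.000113). Its SC libraries were all above its SH2 libraries. IFI6 fell by 1.35 and the ubiquitin-like ISG15 by 0.85.

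Integrins are paired receptors that hold cells to the extracellular matrix. Of 13 tested integrin subunits 9 rose and 1 fell, with a median log2 fold change of 1.41, the highest of the 30 lists. Of all tested genes 21% rose and 23.2% fell. ITGA10, a collagen receptor subunit, was at 1.14, 1.26 and 1.06 CPM in SC and 17.8, 13.8 and 14.9 CPM in SH2 (log2 fold change 3.72, SE 0.30, edgeR adjusted p = 4.05e-07). ITGB8, which activates latent TGF-beta, rose from 2.60, 1.26 and 2.31 CPM to 11.1, 11.4 and 9.39 CPM (log2 fold change 2.25, SE 0.30, edgeR adjusted p = 3.06e-05). ITGA5, the fibronectin receptor subunit, rose from 128, 253 and 169 CPM to 446, 853 and 474 CPM (log2 fold change 1.70, SE 0.26, edgeR adjusted p = 9.51e-05). All 3 genes separated the groups, with ITGA10 and ITGB8 both at the floor in SC replicate 2 and ITGA10 close to it in the other SC libraries. ITGA3, a laminin receptor subunit with far more reads, was at 499.9, 732 and 641 CPM in SC and 1622, 1985 and 1778 CPM in SH2 (log2 fold change 1.53, SE 0.15, edgeR adjusted p = 1.58e-06). ITGAE, known from intraepithelial lymphocytes, fell by 2.51. ITGB1, the partner of most of these alpha subunits, had a log2 fold change of 0.33 and was not called, but without SC replicate 2 it was (0.71).

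Collagens and laminins build the interstitial matrix and the basement membrane. Of 25 tested collagen and laminin chains 14 rose and 4 fell, with a median log2 fold change of 0.78, beside 21% and 23.2% of all genes. COL6A1, a chain of the beaded filament collagen VI, was at 79.7, 102 and 78.6 CPM in SC and 514, 429 and 488 CPM in SH2 (log2 fold change 2.47, SE 0.16, edgeR adjusted p = 6.51e-08). COL15A1, a basement membrane collagen, rose by 2.82, or by 3.63 without SC replicate 1. The COL6A1 libraries of SH2 were several times above those of SC. LAMA3, a laminin chain of epithelial basement membranes, and COL8A1 fell by 1.35 and 1.07. LAMB3, a laminin beta chain, rose by 0.77, and without SH2 replicate 2 it was not called (0.49).

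Of 26 tested matrix proteases and their regulators 15 rose and 3 fell, with a median log2 fold change of 0.91 (21% and 23.2% among all genes). SERPINB2, plasminogen activator inhibitor 2, was at 17.1, 48.9 and 17.9 CPM in SC and 168, 121 and 109 CPM in SH2 (log2 fold change 2.35, SE 0.31, edgeR adjusted p = 2.85e-05). MMP14, a membrane-bound collagenase that activates other matrix metalloproteases, rose from 228, 354 and 269 CPM to 814, 923 and 756 CPM (log2 fold change 1.55, SE 0.17, edgeR adjusted p = 5.3e-06). Neither gene's groups overlapped. MMP16, a second membrane-bound member, rose by 2.14, and the protease inhibitors TIMP1 and TIMP2 rose by 0.96 and 0.98. ADAM15, a membrane metalloprotease, fell from 103, 187 and 173 CPM to 41.1, 36.1 and 42.4 CPM (log2 fold change -1.95, SE 0.20, edgeR adjusted p = 2.4e-06).

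Of 24 tested genes of the epithelial-mesenchymal transition 7 rose and 6 fell, with a median of 0.06, against 21% and 23.2% of all genes. The number that fell was 3 without SC replicate 3 and 3 without SH2 replicate 2. CDH11, a mesenchymal cadherin, rose from 67.9, 67.0 and 67.3 CPM to 194, 240.1 and 152 CPM (log2 fold change 1.54, SE 0.20, edgeR adjusted p = 2.37e-05), ZEB2 by 1.36 and fibronectin, FN1, by 1.203. CD44, the hyaluronan receptor, was at 557, 1007 and 729.5 CPM in SC and 1450, 2030 and 1340 CPM in SH2 (log2 fold change 1.07, SE 0.21, edgeR adjusted p = 0.000616). Its SH2 libraries were all above SC. The receptor kinase AXL fell from 632, 1427 and 1182 CPM to 368, 644 and 541 CPM (log2 fold change -1.06, SE 0.24, edgeR adjusted p = 0.0022). The epithelial gene OCLN, given above, had the steepest fall of this list.

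The EGF receptor signals through RAS and ERK, and ERK output is damped by its own targets, the DUSP phosphatases and SPRY proteins. EGFR was at 166, 214 and 171 CPM in SC and 739.9, 1142 and 786 CPM in SH2 (log2 fold change 2.28, SE 0.17, edgeR adjusted p = 2.67e-07). Beside EREG, its ligand amphiregulin, AREG, rose from 47.7, 28.2 and 22.9 CPM to 214, 249 and 173 CPM (log2 fold change 2.67, SE 0.23, edgeR adjusted p = 5.85e-07). JAG1, a ligand of NOTCH receptors, rose from 180.5, 301 and 209 CPM to 1156, 1363 and 1032 CPM (log2 fold change 2.37, SE 0.19, edgeR adjusted p = 3.66e-07). The receptor and the ligands were higher in all SH2 libraries than in any SC library. Of 31 tested genes of RAS-ERK output, immediate-early genes and AP-1 factors, 11 rose and 4 fell, with a median log2 fold change of 0.37, beside 21% and 23.2% of all genes. DUSP5, a nuclear ERK phosphatase, rose from 17.4, 16.01 and 8.70 CPM to 55.2, 61.5 and 53.4 CPM (log2 fold change 2.04, SE 0.23, edgeR adjusted p = 6.93e-06), DUSP6 by 1.00 and EPHA4 by 2.09. ETV5 fell by 1.09. MYC had a log2 fold change of 0.10 (SE 0.13) and was not called.

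YAP and TAZ are transcriptional co-activators that act with TEAD factors. Of 25 tested factors and targets 5 rose and 6 fell, with a median of -0.08. Both counts are close to the shares of all genes (21% and 23.2%). NT5E, the surface nucleotidase CD73, rose from 301, 305 and 358 CPM to 925, 1054 and 834 CPM (log2 fold change 1.54, SE 0.16, edgeR adjusted p = 2.57e-06), and IGFBP3 by 1.10. ANKRD1, a widely used YAP target, fell from 753, 737 and 688 CPM to 255, 289.5 and 266 CPM (log2 fold change -1.43, SE 0.12, edgeR adjusted p = 7.71e-07). TEAD4 fell by 1.12, a call that was lost at the thinned depth.

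The p53 protein of MDA-MB-231 is mutant. Of 27 tested p53 target genes 6 (22.2%) rose and 7 (25.9%) fell, with a median of 0.28. These shares are close to those of all genes (21% and 23.2%). Without SC replicate 3, 3 rose. CDKN1A, the cyclin-dependent kinase inhibitor p21, was at 77.0, 108 and 95.9 CPM in SC and 219, 195 and 176 CPM in SH2 (log2 fold change 1.08, SE 0.15, edgeR adjusted p = 4.66e-05). CCNG1, cyclin G1, fell from 43.0, 40.9 and 43.1 CPM to 8.52, 8.86 and 8.42 CPM (log2 fold change -2.30, SE 0.24, edgeR adjusted p = 3.62e-06), and MDM2, the ubiquitin ligase of p53, from 44.2, 35.8 and 37.1 CPM to 12.6, 6.76 and 9.71 CPM (log2 fold change -2.05, SE 0.24, edgeR adjusted p = 8.77e-06). The groups of these 3 genes did not overlap. AEN, a nuclease of apoptosis, rose by 0.89, a call lost at the thinned depth.

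Of 16 tested members of the BCL2 family, which set the threshold of mitochondrial apoptosis, 4 rose and 3 fell (21% and 23.2% among all genes), but without SC replicate 3 only 2 rose and 1 fell, and without SH2 replicate 2 only 1 of each. BMF, given above, was the steepest rise. The survival gene BCL2L2 rose by 1.42 and was not called without SH2 replicate 2 (1.27, edgeR adjusted p = 0.0666). BAD, a BH3-only protein, fell by 0.71. BCL2L1, which encodes BCL-xL, had -0.40 and lost its call without any 1 of SC replicates 1 and 3 and SH2 replicates 2 and 3 (values of -0.39, -0.34, -0.28 and -0.40). DESeq2, library totals alone, a fit of only the compared groups and the thinned depth also ended this call.

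Of 12 tested box C/D partners and assembly factors, 2 rose and 2 fell, with a median log2 fold change of -0.05, against 21% and 23.2% of all genes. NOP56, a core protein of the particle, was at 229, 171 and 172 CPM in SC and 393, 382 and 368 CPM in SH2 (log2 fold change 1.00, SE 0.14, edgeR adjusted p = 5.13e-05). All SH2 libraries were above all SC libraries. NOP58, its partner in the particle, had -0.09 (SE 0.13) and was not called. Among assembly factors, ZNHIT6 fell by 0.69. NOLC1, a nucleolar chaperone, rose by 0.44 and NUFIP1, an assembly factor, fell by 0.55. Both of these calls depended on single libraries: NOLC1 was not called without SC replicate 3 (0.39) or SH2 replicate 3 (0.38), and NUFIP1 was not called without SC replicate 1 (-0.39), SH2 replicate 2 (-0.44) or SH2 replicate 3 (-0.54). NUFIP1 also lost its call by DESeq2, with only the compared groups fitted and at the thinned depth.

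Of 68 tested ribosome biogenesis factors 15 (22.1%) rose and 12 (17.6%) fell, with a median of 0.10. These shares are near those of all genes, 21% and 23.2%. DDX18 and UTP3, which act on the large and small subunit precursors, rose by 0.98 and 0.96. NPM1, nucleophosmin, was at 2125, 2136 and 2274 CPM in SC and 1243, 814 and 841 CPM in SH2 (log2 fold change -1.17, SE 0.17, edgeR adjusted p = 4.73e-05), and NIP7 fell by 1.15. Every SH2 library of NPM1 was below SC. Of 17 genes of RNA polymerase I and its factors 4 rose and 4 fell. POLR1A and POLR1B, the catalytic subunits, rose by 0.79 and 0.68, and POLR1F fell by 0.77. TAF1D had -0.98 but was not called without SC replicate 1 (-0.34), SH2 replicate 1 (-0.92) or SH2 replicate 3 (-0.87).

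Ribosomal proteins of the cytosol are given by subunit. Of 32 tested proteins of the small subunit 3 rose and 8 fell, with a median log2 fold change of -0.10, and of 47 proteins of the large subunit 6 rose and 11 fell, with a median of -0.04. Of all genes 21% rose and 23.2% fell. The falls of the small subunit numbered 5 without SH2 replicate 1, 4 without SH2 replicate 2 and 5 without SH2 replicate 3. The falls of the large subunit numbered 6 without SC replicate 1, 5 without SH2 replicate 2 and 6 without SH2 replicate 3. RPS10 was the member that rose most, from 46.9, 137 and 122 CPM to 158, 235 and 257 CPM (log2 fold change 1.11, SE 0.29, edgeR adjusted p = 0.00541). RPS4X, RPL18 and RPL13A rose by 0.44, 0.55 and 0.47. RPS26 fell from 841, 709 and 739 CPM to 441, 349.9 and 370 CPM (log2 fold change -0.98, SE 0.15, edgeR adjusted p = 9.76e-05) and RPS28 by 0.73. The RPS10 and RPS26 groups did not overlap. RPL36A had -1.27 and lost its call without SC replicate 1 (-0.81), SH2 replicate 2 (-1.10) or SH2 replicate 3 (-1.09), and RPL41 (-1.13) lost it at the thinned depth. Ribosomal protein genes have many processed pseudogenes, so single members are uncertain.

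Of 45 tested initiation and elongation factors 10 rose and 13 fell, with a median near 0 (0.005), beside 21% and 23.2% of all genes. EIF5, which triggers GTP hydrolysis at the start codon, rose from 267, 188 and 198 CPM to 461, 407 and 393 CPM (log2 fold change 0.95, SE 0.15, edgeR adjusted p = 0.000126). EEF2K, the kinase that inhibits elongation factor 2, rose by 0.68. EIF4EBP1, the repressor of the cap-binding protein eIF4E, fell from 21.6, 17.7 and 25.0 CPM to 5.92, 7.92 and 13.3 CPM (log2 fold change -1.26, SE 0.33, edgeR adjusted p = 0.00521). Both separated the groups. EEF1G, a subunit of the elongation factor 1 exchange complex, was at 153, 41.3 and 53.8 CPM in SC and 24.4, 34.7 and 25.6 CPM in SH2, and its log2 fold change of -1.56 became -0.75 without SC replicate 1, which was the highest library. Of 22 aminoacyl-tRNA synthetase genes, which charge tRNAs, 3 rose and 7 fell, 6 rose without SC replicate 2 and 4 fell without SH2 replicate 1. WARS1 and KARS1 rose by 0.67 and 0.50, and YARS1 and EPRS1 fell by 1.10 and 0.79.

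ATF4 is translated when the initiation factor eIF2 is phosphorylated and switches on amino acid synthesis and stress genes. Of 26 tested genes of this response 5 rose and 9 fell, with a median of -0.09 (21% and 23.2% among all genes), and 3 rose without SH2 replicate 3. PPP1R15A, the phosphatase subunit that restores eIF2, rose from 80.0, 96.5 and 58.4 CPM to 190, 197 and 192 CPM (log2 fold change 1.31, SE 0.20, edgeR adjusted p = 7.93e-05), and DDIT3, the factor CHOP, rose by 1.201. PHGDH, the first enzyme of serine synthesis, fell from 99.4, 89.3 and 134 CPM to 17.0, 19.4 and 31.1 CPM (log2 fold change -2.27, SE 0.23, edgeR adjusted p = 2.55e-06). All SH2 libraries of PHGDH were well below SC. PSPH and PSAT1, the other enzymes of that pathway, fell by 1.93 and 0.97. NUPR1 fell by 2.32, and by 2.99 without SH2 replicate 2. ATF4 itself had -0.54, and it was not called without SC replicate 3 (-0.47) or SH2 replicate 2 (-0.46).

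Of 26 genes of endoplasmic reticulum chaperones and the unfolded protein response 12 rose and 4 fell, with a median of 0.36, beside 21% and 23.2% of all genes. The stress sensor IRE1, ERN1, was at 12.5, 21.1 and 14.0 CPM in SC and 58.9, 60.8 and 52.8 CPM in SH2 (log2 fold change 1.92, SE 0.19, edgeR adjusted p = 2.3e-06). The sensor PERK, EIF2AK3, rose from 14.3, 11.8 and 9.23 CPM to 37.8, 34.0 and 22.7 CPM (log2 fold change 1.41, SE 0.24, edgeR adjusted p = 0.00026). Both sensors were higher in every SH2 library. Genes of the degradation machinery, HERPUD1, SYVN1 and SEL1L, rose by 1.27, 1.26 and 1.19. The chaperone HSPA5, known as BiP, had 0.36 and was not called, but without SC replicate 2 it was (0.62). EDEM1, which directs misfolded glycoproteins to degradation, fell by 1.00, and ERO1B, an oxidase of disulfide formation, had -0.99 but lost its call without SC replicate 2 (-0.91), SC replicate 3 (-0.97), SH2 replicate 1 (-0.83) or SH2 replicate 3 (-0.91). ERO1B was also not called by DESeq2 or with no filter on low counts.

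Of 52 lysosome and autophagy genes 19 rose and 4 fell, with a median of 0.30 (21% and 23.2% among all genes), and 30 rose without SC replicate 2. MANBA, a lysosomal mannosidase, rose from 9.42, 9.69 and 7.81 CPM to 31.9, 43.1 and 27.8 CPM (log2 fold change 1.96, SE 0.23, edgeR adjusted p = 7.83e-06), ULK1, the kinase that starts autophagy, by 1.38 and the membrane protein LAMP2 by 1.13. ATG12 and the protease CTSC fell by 1.04 and 0.81, and the autophagy receptor SQSTM1 had 0.29 and was not called, but without SC replicate 2 it was (0.51). The MANBA groups did not overlap. Of 32 proteasome subunits 4 rose and 9 fell, with a median of -0.24, and 5 fell without SC replicate 3 or without SH2 replicate 3. PSMD3 and PSMA5 rose by 0.68 and 0.49, and PSMC1 and PSMD2 fell by 0.78 and 0.69.

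Of 34 tested genes of sterol and fatty acid synthesis 6 rose and 14 fell, with a median of -0.41, against 21% and 23.2% of all genes. MSMO1, of sterol synthesis, fell from 121, 253 and 207 CPM to 84.4, 103 and 106 CPM (log2 fold change -0.97, SE 0.21, edgeR adjusted p = 0.00154), and SCD, which makes monounsaturated fatty acids, from 426, 569 and 471 CPM to 298, 208 and 256 CPM (log2 fold change -0.94, SE 0.15, edgeR adjusted p = 0.000161). All SH2 libraries of both genes lay under SC. SQLE, squalene epoxidase, and the regulator SREBF1 rose by 0.73 and 0.60. Of 34 genes of glycolysis and the hypoxia response 6 rose and 11 fell, with a median of -0.02. ENO2, an enolase, fell by 1.61 and PFKFB4, a regulator of phosphofructokinase, by 1.42. KDM3A, a histone demethylase induced by hypoxia, rose from 48.9, 43.0 and 41.5 CPM to 171, 183 and 132 CPM (log2 fold change 1.86, SE 0.15, edgeR adjusted p = 4.05e-07), and the glucose transporter SLC2A1 by 0.99. The KDM3A libraries of SH2 were all above SC.

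Most footprint changes were accompanied by a called change of RNA. Cytoplasmic RNA was called for 7805 of 12710 genes (61.4%), 3947 higher (31.1%) and 3858 lower (30.4%). Scaled by library totals alone, the split was 4582 higher and 3305 lower, with the median of all genes moved to 0.105. Of the 4576 genes called in footprints, 3805 were also called in RNA in the same direction, 714 were tested but not called in RNA and 55 were called in opposite directions. The other two were not tested in RNA. Translational efficiency was called for 489 of 12531 genes (3.9%), 181 higher (1.44%) and 308 lower (2.46%), and for 191 when each lysate, which gave both libraries, was taken as a block. With library totals alone 129 were higher and 476 lower. Without SC replicate 3, SH2 replicate 1 or SH2 replicate 3 the count was 140, 195 or 110. Footprints and efficiency were both called for 289 genes, in the same direction for 101 rises and 169 falls. Efficiency is built from the footprint and RNA values, so these counts describe one set of libraries and are not separate evidence.

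**Figure D4:**
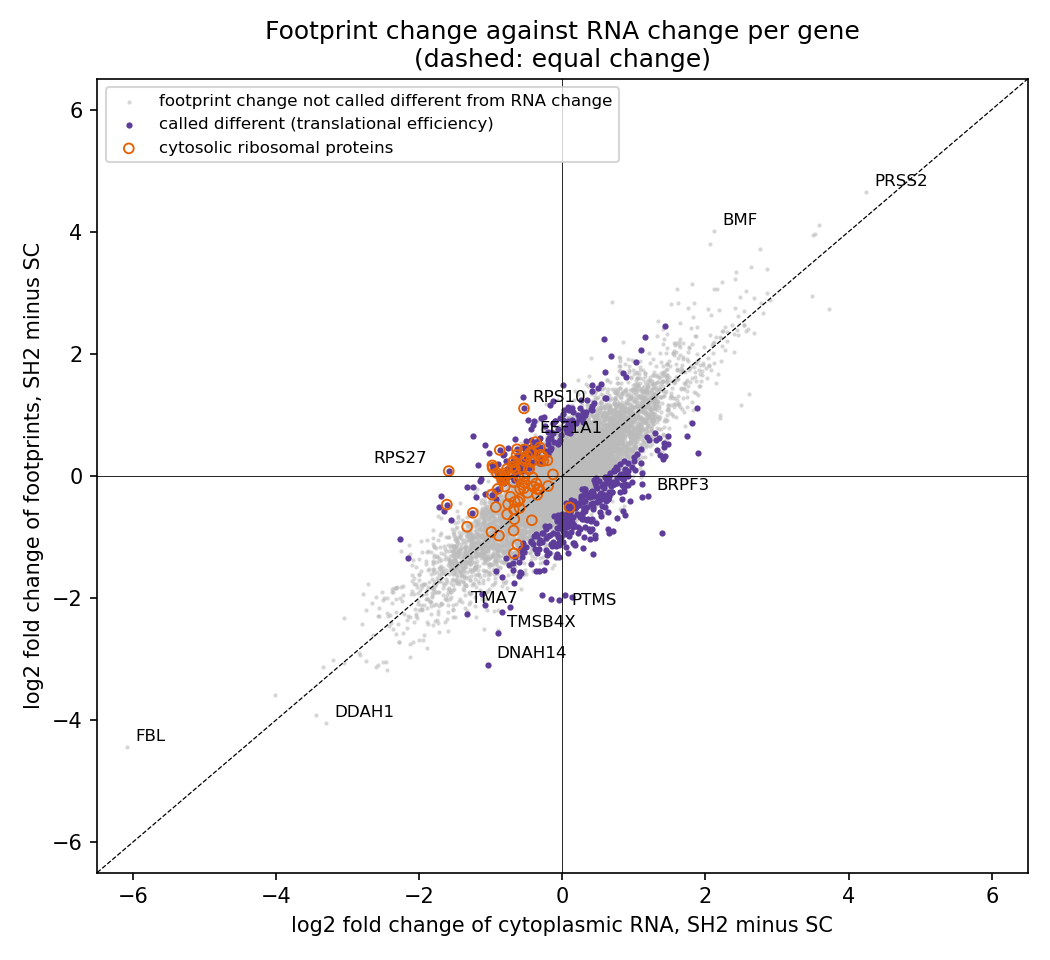
Log2 fold change of footprints (y axis) against that of cytoplasmic RNA (x axis), SH2 minus SC, 1 point per gene. Purple points are genes whose footprint and RNA changes were called different, orange rings cytosolic ribosomal proteins, and the dashed line marks equal changes. Most ribosomal proteins lie left of 0 on the x axis and close to 0 on the y axis.

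For ribosomal proteins RNA and footprints differed. RNA was called lower for 31 of 33 small subunit genes and 45 of 47 large subunit genes, with medians of -0.56 and -0.68, where 30.4% of all genes were called lower. Translational efficiency was called higher for 12 of 33 and 23 of 47, and lower for 0 of each, beside 1.44% of all genes called higher. These counts were 10 and 21 with the lysate as a block, 8 and 15 without SC replicate 3, 7 and 13 without SH2 replicate 1, and 8 and 11 without SH2 replicate 3. Of these genes RPS27 had the highest called efficiency change. Its RNA went from 629, 571 and 625 CPM to 191, 236 and 179.6 CPM, while its footprints were at 403, 316 and 311 CPM in SC and 389, 328 and 373 CPM in SH2. Its footprint groups overlapped, with a log2 fold change of 0.08, and efficiency differed by 1.65 (SE 0.17, edgeR adjusted p = 4.9e-05). RPS10 had 1.64, and without SH2 replicate 3 it was not called (1.51, edgeR adjusted p = 0.0693). EEF1A1, which like ribosomal proteins has a terminal oligopyrimidine mRNA, had an RNA change of -0.44, a footprint change of 0.60 and an efficiency change of 1.03 (SE 0.21, edgeR adjusted p = 0.00787).

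Among all genes with a mean of at least 10 CPM, the other highest called efficiency changes were in PIGW, an enzyme of GPI anchor synthesis (1.57), BLCAP (1.41) and B4GALT6, a galactosyltransferase (1.36). With the lysate as a block BLCAP and B4GALT6 were not called (edgeR adjusted p = 0.111 and 0.12). Beside DNAH14, the lowest were PTMS, parathymosin (-1.88), TMSB4X (-1.70), TMA7 (-1.68) and BRPF3, a chromatin reader (-1.55). TMSB4X had RNA at 1007, 889 and 1031 CPM in SC and 575, 505 and 496 CPM in SH2, a log2 fold change of -0.89, while its footprints had -2.58. The footprint fall was thus the larger of these changes (efficiency -1.70, SE 0.33, edgeR adjusted p = 0.00569). FBL had an RNA change of -6.08 and a footprint change of -4.44, and the difference between them was not called (edgeR adjusted p = 0.217).

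The second hairpin, SH3, targets the same mRNA, and in the direct comparison of SH2 with SH3 the SC libraries drop out of the log2 difference. They still entered the shared fit of 9 footprint libraries, and so its estimate of the spread. The comparison called 2459 of 10345 genes (23.8%), 1256 higher in SH2 (12.1%) and 1203 lower (11.6%). With only the SH2 and SH3 libraries fitted, 3019 were called. With library totals alone the split was 1065 and 1477, and without SH3 replicate 2 the count was 1541. FBL footprints in SH3 were at 4.10, 5.48 and 8.06 CPM, and SH2 differed from SH3 by 1.08 on the log2 scale (SE 0.58, edgeR adjusted p = 0.192), which was not called. Of the 4576 genes called between SH2 and SC, 1507 were also called between SH2 and SH3. Of the rises against SC, 651 were higher in SH2 than in SH3 and 33 were lower. Of the falls, 739 were lower in SH2 than in SH3 and 84 were higher. Both comparisons use the same SH2 libraries, so these splits are partly set by that sharing and are not separate evidence.

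Among the 12 steepest rises all 12 were also called higher in SH3 than in the shared SC libraries, and 6 were called higher in SH2 than in SH3. Over all tested genes 12.1% were called higher in SH2 than in SH3. These 12 were chosen by their SH2 values, which both tests use, so the 6 calls are not separate evidence. PRSS2 was at 26.9, 31.2 and 30.9 CPM in SH3, above all 3 SC libraries and far below SH2, and the difference of SH2 from SH3 was 3.83 (SE 0.22, edgeR adjusted p = 2.38e-08). SLITRK6 was at 10.5, 11.6 and 7.01 CPM in SH3. EREG at 53.9, 68.5 and 86.2 CPM, CYP1B1 at 177, 207 and 183 CPM and PIEZO2 at 18.7, 19.9 and 19.3 CPM in SH3 were not called different from SH2. Each hairpin's change against the shared SC libraries was, on the log2 scale, 3.06 and 2.89 for EREG and 2.99 and 2.92 for CYP1B1 (SH2 first), but 4.65 and 0.82 for PRSS2.

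Among the 11 steep falls described 9 were called lower in SH2 than in SH3, where 11.6% of all tested genes were. These falls too were chosen by their SH2 values. OCLN was at 56.8, 45.5 and 35.8 CPM in SH3, within the range of the SC libraries or near it, and DDAH1 at 114, 79.4 and 85.5 CPM. For OCLN the log2 difference of SH2 from SH3 was -3.09 (edgeR adjusted p = 1.59e-06). For DDAH1 it was -3.33 (edgeR adjusted p = 8.25e-08). ANXA2 was at 3841, 4320 and 3944 CPM in SH3, between the other groups. KISS1 and H2AC11 were at 9.37, 3.42 and 5.26 CPM and 123, 112 and 154 CPM and were not called different from SH2.

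Over called genes with a mean of at least 10 CPM in SC and SH2 the widest differences between the hairpins were in SLC25A24, a mitochondrial carrier, with 250.3, 286 and 239 CPM in SH2 and 17.0, 18.5 and 13.3 CPM in SH3, and TMEM30A, a flippase subunit, with 259, 325 and 264 CPM and 20.5, 19.9 and 16.8 CPM. Their SC levels were 214, 214 and 208 CPM and 158, 176 and 170.4 CPM. In both genes it was therefore SH3 that departed from SC the most. PRSS2, given above (3.83), GPR180 (3.71) and TNFRSF11B (3.12) followed, and GPR180 had 4.37 without SH3 replicate 3. At the lower end stood DDAH1, AHNAK (-3.15), OCLN, RIDA (-2.73) and PAIP2 (-2.57). AHNAK, a giant scaffold protein, fell in SH2 from 322, 552 and 317 CPM to 139, 31.2 and 72.2 CPM, and without SH2 replicate 1 its log2 fold change of -2.31 became -2.94 and its difference from SH3 became -3.78. IL1B, given above as a rise, was at 10.5, 6.505 and 7.36 CPM in SH3, and its log2 fold change against the shared SC libraries was -1.31 there.

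The gene lists differed in how far the hairpins matched. Of the 45 mitosis genes 2 were called higher and 2 lower in SH2 than in SH3, and of the 40 replication genes 1 was higher and 9 were lower. Of the 18 MHC class I genes 3 were higher and 1 was lower. All 16 sterol and fatty acid synthesis genes called between the hairpins were higher in SH2, and so were 14 of 16 glycolysis and hypoxia genes, where 12.1% of all tested genes were called higher. Of the 13 mitochondrially encoded mRNAs 9 were lower in SH2 than in SH3, where 11.6% of all were called lower.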

How the data were processed

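Ribosome footprints and cytoplasmic RNA were sequenced in MDA-MB-231 cells with the scramble control SC or the hairpins SH2 or SH3, with 3 replicates of each, so 9 libraries of each kind. The deposited table holds the authors' raw read counts per gene and a normalized signal per gene. The deposited signal was the raw count divided by 1 factor per library (largest relative departure from a constant 5.6e-15), and it was not used further, nor were the authors' fold changes and p-values. Bowtie 1.2.2 and DESeq2 are named in the submitters' processing notes. The genome build, annotation, counting tool and treatment of reads with several matches are not given in the sources used here.

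Counts were tested in R 4.3.3 with edgeR 4.0.16 (limma 3.58.1): genes passing filterByExpr, TMM factors and the quasi-likelihood test, two-sided, with Benjamini-Hochberg adjustment over all genes tested. The 9 footprint libraries and the 9 RNA libraries were each fitted together, and translational efficiency was the interaction of library kind and group over all 18. The SE of a log2 fold change is its absolute value over the root of its F statistic. Self-tests used simulated counts. Alternatives were DESeq2 1.42.0, other scalings, filters and thresholds, thinning, a replicate block and leaving out each library.

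Members and gene lists were chosen with earlier results of these data known. The text names FBL, the 12 called genes per direction with the steepest change among those with a mean of at least 10 CPM and groups that do not overlap, the 5 per direction with the largest change of mean CPM, up to 2 called members per direction of each list, and the 5 per direction with the largest called difference in translational efficiency or between hairpins, both with a mean of at least 10 CPM. The other 55 genes named with values were chosen after their values were seen, and some genes that the rule names are not reported here. Replicate numbers come from the labels. Deviations from the group means of SC and SH2 footprints (log2 of CPM plus 1) correlated at r = 0.289, 0.3 and 0.252 over genes for the same number and at -0.225 to -0.07 for different numbers, so the numbers pair the libraries. The fits behind the stated p-values did not use this pairing. With the replicate number as a block, 5018 genes were called between SH2 and SC, against 4576. No pair of replicates was as close as sampling noise allows, with a chi-square per degree of freedom of 3.55 or more. List symbols that matched no row of the table were not analysed here. A count of 3 was taken as the floor.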

Additional observations from a re-analysis of the deposited data

Results flagged for a closer look

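The direct test of SH2 against SH3 called a difference for 15 of the 23 genes described among those with the steepest footprint change against SC. Of all tested genes 23.8% were called in that test. The 23 genes were chosen by their SH2 values, and both tests use the same SH2 libraries, so the calls are not separate evidence. All differences are log2 values of SH2 minus SH3 from edgeR over 3 libraries of each group. Genes that rose in SH2 and were higher than in SH3 were the trypsinogen PRSS2 (3.83, edgeR adjusted p = 2.38e-08), SLITRK6 (2.43, edgeR adjusted p = 1.96e-05), the vitamin B12 carrier TCN1 (1.82, edgeR adjusted p = 0.00258), periplakin PPL (1.16, edgeR adjusted p = 0.00139), ZG16B (1.05, edgeR adjusted p = 0.0133) and complement C3 (1.02, edgeR adjusted p = 0.0201).

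Genes that fell in SH2 and were lower than in SH3 were DDAH1 (-3.33, edgeR adjusted p = 8.25e-08), occludin OCLN (-3.09, edgeR adjusted p = 1.59e-06), annexin ANXA2 (-2.04, edgeR adjusted p = 3.82e-06), HDDC2 (-1.89, edgeR adjusted p = 0.0107) and NT5DC3 (-1.87, edgeR adjusted p = 3.28e-05). The kinetochore gene SKA1 (-1.27, edgeR adjusted p = 0.00517), FAM102B (-1.23, edgeR adjusted p = 0.0131), DNAH14 (-1.22, edgeR adjusted p = 0.0148) and ARNT2 (-1.13, edgeR adjusted p = 0.0326) differed by less. Of these 15 differences 6 were not called without 1 library. The values without that library were 0.98 or 0.99 without SH2 replicate 2 or 3 and 0.63 without SH3 replicate 2 for C3, and 0.64 or 0.88 without replicate 2 of SH2 or SH3 for ZG16B. DNAH14 had -1.12 or -1.13 without SH2 replicate 2 or 3 and -1.16 without SH3 replicate 2, and FAM102B had -0.96 or -1.18 without replicate 2 of SH2 or SH3. HDDC2 had -1.59 without SH3 replicate 3 and, while still called, -1.25 without SH2 replicate 2. ARNT2 had -0.80 to -1.12 without SH2 replicate 1 or 2 or SH3 replicate 2.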

How the results depend on the processing

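The 4576 genes called between SH2 and SC became 3740 to 4807 when 1 library was left out, and 1798 with a minimum absolute log2 change of 1. With the replicate number as a block the count was 5018. The 2459 genes called between SH2 and SH3 became 1301 at an adjusted p under 0.01, 874 with the minimum log2 change of 1 and 1541 to 2104 without 1 library. With a minimum log2 change of 1, the 7805 genes called in RNA became 2336. The 489 genes called in translational efficiency varied more: 184 when only the libraries of the compared groups were fitted, 930 by DESeq2, 191 with each lysate as a block, 314 at the thinned depth, 100 at an adjusted p under 0.01, 152 with the minimum log2 change and 110 to 555 without 1 library. Causes were not tested. In the other comparisons the block moved no count of called genes by over 1.5 times.

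Of 208 genes named with values 187 were called. In the alternatives that tested them, up to 14 each, 169 kept the call, 18 lost it in at least 1 and 0 changed direction. Of the 30 lists, 8 had a count of called members that moved by over 1.5 times in some alternative. Thinning all footprint libraries to 1662705 counts, the shallowest library's total, left 3754 calls.

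The p-values cover the spread of 3 libraries per group from pools of 1 cell line. Footprint counts are per gene, so positions within a gene were not analysed here. A hairpin's effects on other mRNAs and those of fibrillarin's loss cannot be told apart in 1 group. A footprint count of up to 3 was read as the floor.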
